A study of Mus musculus with 12 samples.

Results

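The 37 genes of the mouse mitochondrial genome were followed in satellite cells, the muscle stem cells, of hindlimb muscle. They are all genes that the count tables place on chromosome MT, or whose symbol starts with mt-, and number 37 of 55385 genes: 13 mRNA genes, 2 rRNA genes and 22 tRNA genes. RNA was measured in 12 libraries from C57BL/6J mice, each from a separately numbered animal, in 4 groups of 3: females labelled Keap1 Hetz (Hetz164, Hetz165 and Hetz181), females labelled Keap1 KO (KO166, KO178 and KO188), males labelled Keap1 Hetz (Hetz204, Hetz245 and Hetz249) and males labelled Keap1 KO (KO240, KO247 and KO255). Keap1 is the adaptor protein that marks the transcription factor Nrf2 for degradation, and the study asked whether this pathway acts differently on satellite cells of the 2 sexes. The Hetz groups, which serve as controls, are described by the genotype field as heterogeneous, so no library is labelled wild type. Cells were frozen directly after isolation. Age, the targeted allele and any Cre driver are not given in the sources used here. The libraries were made by Smart-Seq2, which primes on poly(A) tails and amplifies full-length cDNA.

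The mitochondrial genome is a small circle that is transcribed from both strands into long precursors, and all of its protein-coding genes encode subunits of the oxidative phosphorylation machinery. In most places a tRNA gene stands between 2 larger genes, and excision of the tRNAs frees the mRNAs and rRNAs on either side. The 2 rRNA genes lie next to the start of heavy-strand transcription and encode the RNA of the small (mt-Rnr1, 12S) and large (mt-Rnr2, 16S) subunit of the mitochondrial ribosome. Mitochondrial mRNAs carry short poly(A) tails, rRNAs carry a few added adenines, and mature tRNAs end in CCA, so a method that primes on poly(A) does not take the 3 classes in equal parts.

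The junctions at the genes on which the results turn are shown because a tRNA gene separates each pair, and counts assigned to the tRNA rows come from these short stretches. All 3 are plus-strand stretches of GRCm38 with the tRNA gene in capitals and 30 bases of the genes on both sides in lower case, except that in the last one the lower-case bases after the capitals run through the whole of mt-Tp, which is encoded on the minus strand.
mt-Rnr1, mt-Tv and mt-Rnr2 at MT:995-1123: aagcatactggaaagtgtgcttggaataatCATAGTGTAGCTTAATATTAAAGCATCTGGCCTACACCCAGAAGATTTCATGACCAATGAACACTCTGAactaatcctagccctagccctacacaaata
mt-Rnr2, mt-Tl1 and mt-Nd1 at MT:2646-2780: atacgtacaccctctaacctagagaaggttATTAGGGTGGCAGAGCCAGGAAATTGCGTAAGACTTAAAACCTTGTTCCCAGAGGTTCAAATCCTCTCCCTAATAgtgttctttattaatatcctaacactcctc
mt-Cytb, mt-Tt and mt-Tp at MT:15259-15422: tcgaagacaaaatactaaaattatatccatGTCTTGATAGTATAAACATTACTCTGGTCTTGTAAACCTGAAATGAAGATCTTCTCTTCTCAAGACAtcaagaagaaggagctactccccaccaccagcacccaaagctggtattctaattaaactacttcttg
mt-Tl1, which follows mt-Rnr2 directly, holds the known binding site of the termination factor MTERF1.

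Depth ranged from 13042039 to 19273245 counts per library and from 19833 to 22602 genes with a count. Replicates of a group differed by more than sampling noise, with a chi-square of 12.4 to 65.2 per degree of freedom. Xist and Ddx3y placed all 12 libraries in the sex on their label. The count rows for Keap1 sum all of its exons, so they do not check a deletion of some of them. Its level was 8.17 ± 1.21 CPM (counts scaled to a common library size; SD, n = 3) in female Hetz and 11.9 ± 0.922 in female KO (edgeR adjusted p = 0.186), and 7.79 ± 2.36 in male Hetz and 7.29 ± 0.796 in male KO (adjusted p = 0.936). The genotypes are therefore given throughout as the labels have them. CPM values were scaled over all 12 libraries by TMM (a scaling that sets the bulk of genes level between libraries), whereas tests of genotype stayed within a sex, because each sex has its own count table.

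Mitochondrial genes took 2.20% to 2.98% of all counts. Their share was 2.28% ± 0.0681 in female Hetz, 2.49% ± 0.194 in female KO, 2.61% ± 0.318 in male Hetz and 2.75% ± 0.207 in male KO (SD, n = 3 each), and the genotypes overlapped in both sexes. The make-up of that share differed more than its size. In females the rRNA genes took 0.467%, 0.507% and 0.302% of all counts in the Hetz libraries and 0.733%, 0.849% and 1.03% in the KO libraries. All 3 female KO libraries stood above all 3 female Hetz libraries. In males the order was the opposite, with 0.464%, 0.409% and 0.601% in Hetz and 0.349%, 0.226% and 0.407% in KO, again without overlap. Over the 12 libraries mt-Rnr2 held 1066202 of the rRNA counts and mt-Rnr1 22720, so this share follows mt-Rnr2. As a sum, the mRNA genes took 1.82%, 1.70% and 2.03% in female Hetz and 1.57%, 1.62% and 1.66% in female KO, lower in KO without overlap. In males they took 1.98%, 2.005% and 2.38% in Hetz and 2.62%, 2.33% and 2.33% in KO, where the ranges overlapped. The female sum does not stand for each gene: of 11 mRNA genes tested, 8 had a log2 fold change above 0 and 3 below. The lowest, -0.79, was that of mt-Cytb, which held the most mRNA counts over the 12 libraries. The tRNA rows held between 0.00112% and 0.00216%. These sums over genes were not tested. In RNA from a population of cells, fewer cells of a type and less RNA per cell cannot be told apart.

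**Figure D1:**
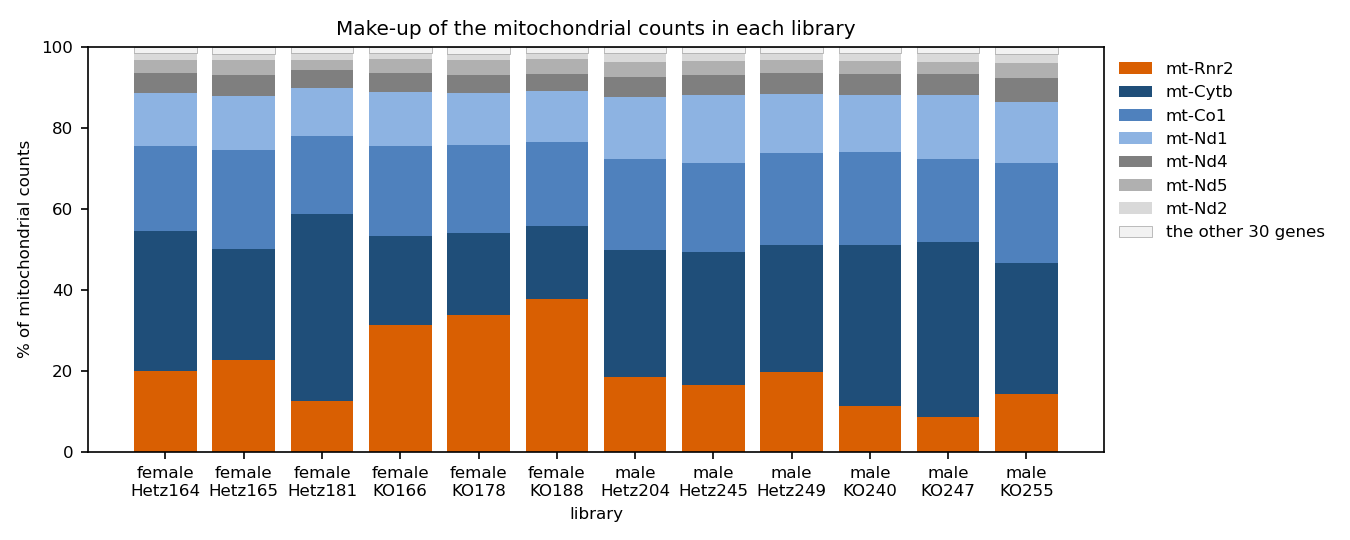
Each bar is 1 library (sex, genotype label and animal number on the x axis) and is divided into the percent of its mitochondrial counts held by the 7 most abundant genes and by the other 30. mt-Rnr2 (orange) holds 31.3% to 37.7% in the 3 female KO libraries against 12.5% to 22.6% in female Hetz, and 8.49% to 14.3% in male KO against 16.6% to 19.7% in male Hetz.

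Within the mitochondrial counts, 7 genes (mt-Cytb, mt-Co1, mt-Rnr2, mt-Nd1, mt-Nd4, mt-Nd5 and mt-Nd2) held 98.2% to 98.6% in every library. mt-Rnr2 and mt-Cytb, the only complex III subunit encoded in mitochondria, varied most among them. mt-Cytb held 34.6%, 27.5% and 46.2% of mitochondrial counts in female Hetz and 22.03%, 20.2% and 17.9% in female KO. In males it held 31.3%, 32.9% and 31.3% in Hetz and 39.8%, 43.3% and 32.2% in KO. mt-Co1, the catalytic core of complex IV, by contrast held between 19.1% and 24.9% in all 12 libraries, and mt-Nd1 of complex I between 11.9% and 16.9%.

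mt-Rnr2 (MT:1094-2675, plus strand), the 16S rRNA, was the single mitochondrial gene that passed the test in any comparison, and it rose in female KO cells. Its level was 4611, 4629.8 and 2874 CPM in female Hetz and 6445, 7990.3 and 9833 CPM in female KO. The lowest KO library stood above the highest Hetz library. The log2 fold change was 0.998 (SE 0.218, 95% interval 0.525 to 1.47, adjusted p = 0.0328 by edgeR's quasi-likelihood test with Benjamini-Hochberg adjustment over all genes), higher in 3 of 3 KO libraries. The call was lost when Hetz164 (adjusted p = 0.0917), Hetz181 (0.116), KO178 (0.0992) or KO188 (0.173) was left out, each time with the same direction. Without Hetz165 or KO166 it remained.

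In males mt-Rnr2 was at 4651, 4125 and 6368 CPM in Hetz and at 3534, 2319 and 3995 CPM in KO. All 3 male KO libraries lay below all 3 male Hetz libraries, but the difference did not pass the test (log2 fold change -0.62, SE 0.215, 95% interval -1.08 to -0.149, adjusted p = 0.264). The difference between the female and male change was 1.62 on the log2 scale (SE 0.332, 95% interval 0.922 to 2.32), and its adjusted p of 0.0854 missed the threshold as well. DESeq2, run as an alternative, gave this difference an adjusted p of 0.000715. Of 18 alternatives it passed in 3: with DESeq2, without the filter on low counts and without Hetz165.

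**Figure D2:**
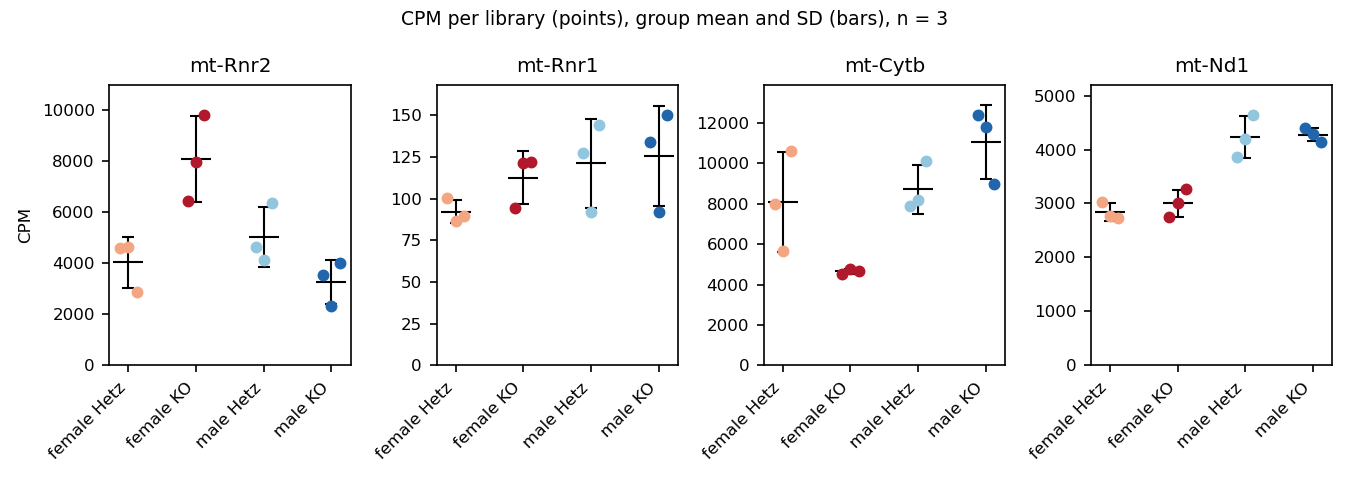
CPM on the y axis (from 0) for mt-Rnr2, mt-Rnr1, mt-Cytb and mt-Nd1; each point is 1 library, and the black bars give the mean and SD of the 3 libraries of each group on the x axis. mt-Rnr2 in KO lies above Hetz in females and below it in males, mt-Cytb in female KO (4532 to 4788) lies below female Hetz (5650.4 to 10617), and the groups of mt-Rnr1 and mt-Nd1 overlap within each sex.

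mt-Rnr1 (MT:70-1024, plus strand), the 12S rRNA, lies upstream of mt-Rnr2 with only mt-Tv between them, and is transcribed on the same precursor. Its level was 100.2, 86.8 and 89.6 CPM in female Hetz and 94.1, 121.5 and 122.0 CPM in female KO. In males it was 127.3, 91.8 and 144.5 CPM in Hetz and 133.9, 92.02 and 150.4 CPM in KO. The genotypes overlapped in both sexes. The log2 fold change was 0.28 in females (SE 0.143, 95% interval -0.0268 to 0.595, adjusted p = 0.322) and 0.05 in males (SE 0.203, -0.389 to 0.498, adjusted p = 0.956), and the difference of the changes was 0.24 (SE 0.261, adjusted p = 0.760).

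The proportion of the 2 rRNA rows differed between the genotypes within each sex, whereas the 2 Hetz groups overlapped. This ratio was not tested. There were 46.0, 53.3 and 32.1 counts of mt-Rnr2 for each count of mt-Rnr1 in female Hetz, and 68.5, 65.8 and 80.6 in female KO. In male Hetz the ratio was 36.5, 44.95 and 44.1, and in male KO 26.4, 25.2 and 26.6. KO was higher than Hetz without overlap in females and lower without overlap in males. Per length of gene, mt-Rnr2 averaged 3233 CPM per kb over the 12 libraries and mt-Rnr1 118 CPM per kb, a 27.4-fold difference between 2 RNAs that are present in equal number in an assembled ribosome. The count of rRNA per count of mitochondrial mRNA was 0.256, 0.299 and 0.148 in female Hetz, 0.466, 0.523 and 0.619 in female KO, 0.234, 0.204 and 0.253 in male Hetz and 0.133, 0.0969 and 0.175 in male KO. This ratio ordered the genotypes in the same 2 opposite ways, and mt-Rnr2 supplies most of its numerator.

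Among the mRNA genes, mt-Cytb (MT:14145-15288, plus strand) had the smallest p in females. It was at 7984, 5650.4 and 10617 CPM in female Hetz and at 4532, 4788 and 4668 CPM in female KO. All female KO libraries lay below all female Hetz libraries, and the KO values were the closest together of the 4 groups. The log2 fold change was -0.79 (SE 0.206, 95% interval -1.24 to -0.348), and with an adjusted p of 0.0689 it missed the threshold. It passed with DESeq2 (adjusted p = 0.00192), with all 12 libraries in 1 fit (0.0333), without the filter on low counts (0.000265) and without Hetz165 (0.00425). In the other 9 of 13 alternatives, limma voom among them, it missed the threshold. The settings in which it passed called 707, 477, 1000 and 1479 genes in all, against 319 in the main fit. In males mt-Cytb was at 7886, 8184 and 10114 CPM in Hetz and 12418, 11820.1 and 8993 CPM in KO, with overlap. The male change, given here for the comparison although the rule for full statistics did not pick it, was 0.35 (SE 0.164, adjusted p = 0.424). The difference of the changes was -1.14 (SE 0.278, adjusted p = 0.129).

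mt-Rnr2 and mt-Cytb therefore had opposite signs of change within each sex. The counts of mt-Rnr2 per count of mt-Cytb were 0.578, 0.819 and 0.271 in female Hetz against 1.42, 1.67 and 2.11 in female KO. In males they were 0.590, 0.504 and 0.630 in Hetz against 0.285, 0.196 and 0.444 in KO. Both sexes were without overlap, in opposite directions. In females this had to follow, because each of the rows already separated the genotypes, in opposite directions. The pair was picked with its values known, so the ratio adds no support of its own. With library sizes and scaling computed without the mitochondrial rows, the log2 fold changes in females were 0.999 for mt-Rnr2 and -0.79 for mt-Cytb, against 0.998 and -0.79 with them.

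Of the complex I subunits, mt-Nd3 and mt-Nd4l had too few counts for the test, with 0 to 5 and 2 to 15 counts per library. mt-Nd1 was at 3024, 2767 and 2727 CPM in female Hetz and 2749, 3001 and 3261 CPM in female KO, and at 3860, 4196 and 4648 CPM in male Hetz and 4392, 4287 and 4144 CPM in male KO. Neither sex separated the genotypes for mt-Nd1, nor for mt-Nd2, mt-Nd4 and mt-Nd5. mt-Nd6 (MT:13552-14070), the only protein-coding gene on the minus strand, was at 245.1, 236.0 and 262.1 CPM in male Hetz and 330.3, 284.6 and 300.6 CPM in male KO. The male KO libraries were all higher, with a log2 fold change of 0.30 (SE 0.122, adjusted p = 0.328), which did not pass the test. In females it was at 220.5, 229.3 and 221.1 CPM in Hetz and 185.3, 236.5 and 255.2 CPM in KO, with overlap. mt-Nd5 and mt-Nd6 lie on opposite strands and share 14 bases, and fragments were counted without regard to strand, so antisense RNA over mt-Nd6 would be counted with it.

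**Figure D3:**
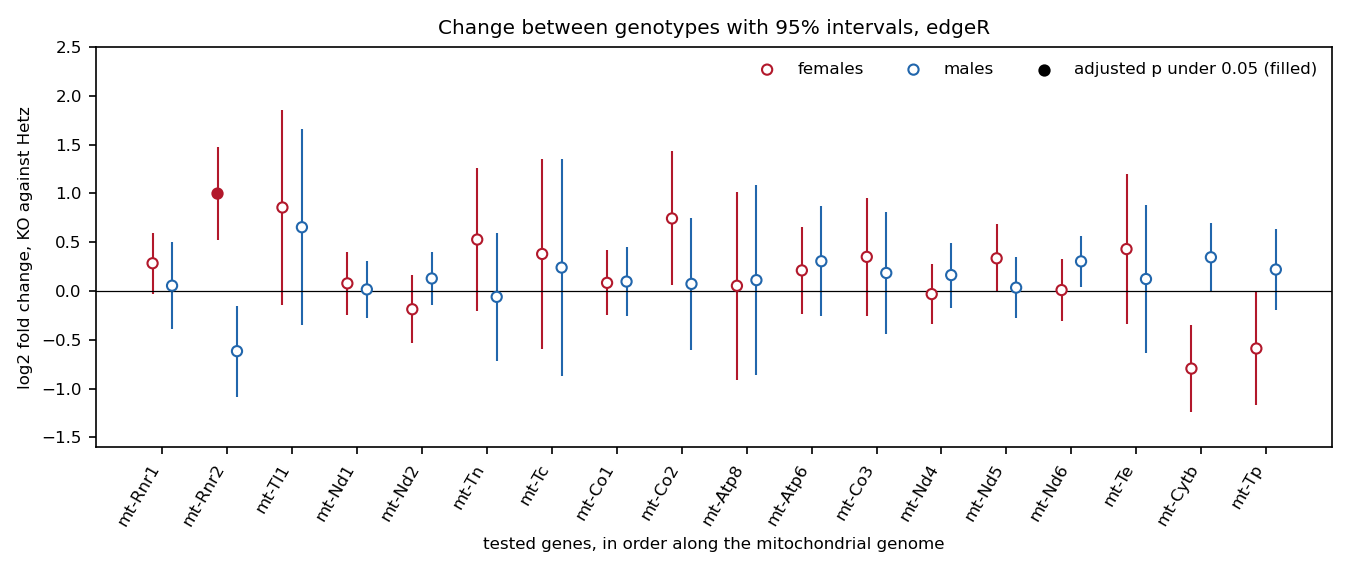
Log2 fold change of KO against Hetz (y axis) for the 18 tested genes in their order along the mitochondrial genome (x axis), females in red and males in blue, with 95% intervals; a filled point has an adjusted p under 0.05. The single filled point is mt-Rnr2 in females at 0.998, and its male value lies at -0.62.

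Over the class, 18 members passed the filter on low counts in females and the same 18 in males: both rRNA genes, 11 mRNA genes and 5 tRNA genes. The other 19 members, among them mt-Nd3 and mt-Nd4l and otherwise tRNA genes, had too few counts to be tested. Of these 18, edgeR called 1 in females (mt-Rnr2, higher) and 0 in males. Of all genes tested, it called 2.27% in females (319 of 14036; 1.29% higher and 0.983% lower) and 0.861% in males (115 of 13361; 0.704% higher and 0.157% lower). For the difference between the sexes 19 members were tested and 0 called, against 0.00677% of all genes (1 of 14772). At an unadjusted p under 0.05 there were 4 members in females (mt-Rnr2, mt-Cytb, mt-Co2 and mt-Tp), 2 in males (mt-Rnr2 and mt-Nd6) and 3 for the difference (mt-Rnr2, mt-Cytb and mt-Tp), beside 17.9%, 12.4% and 12.4% of all genes. DESeq2 called 2 of the 16 members it tested in females, 0 of 18 in males and 2 of 11 for the difference, beside 5.57%, 1.96% and 2.71% of all genes. limma voom called 1, 0 and 0 members, beside 2.08%, 0.756% and 0.00677% of all genes. The libraries of the genotypes did not overlap for 4 of 18 members in females (3 higher and 1 lower in KO), against 22.3% of all genes (12.1% higher and 10.1% lower), and for 3 of 18 in males (2 higher and 1 lower), against 17.2% (9.39% higher and 7.8% lower). Both shares are at the level of all genes. The median log2 fold change of the 11 mRNA genes was 0.08 in females, with 8 above 0, and 0.13 in males, with 11 above 0, beside medians of 0.004 and 0.01 over all genes.

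Levels within the mitochondrial genome spanned several orders of magnitude. Averaged over the 12 libraries and per length, mt-Cytb was highest at 7114 CPM per kb, followed by mt-Nd1 at 3749, mt-Co1 at 3646 and mt-Rnr2 at 3233. The ranges of these 4 over the libraries overlapped in part: mt-Cytb ran from 3961 to 10855 CPM per kb and mt-Rnr2 from 1466 to 6215. mt-Nd4 followed at 930.4, and mt-Nd6, mt-Nd5 and mt-Nd2 lay close together at 483, 473 and 442 CPM per kb. mt-Co2 and mt-Co3, which encode the other 2 core subunits of complex IV beside mt-Co1, were listed at 4.28 and 3.88 CPM per kb. mt-Co1 was thus 851-fold above mt-Co2, although the 3 proteins are made for the same complex. mt-Atp6 and mt-Atp8, the ATP synthase subunits whose reading frames overlap by 43 bases, were at 10.9 and 4.56 CPM per kb, and mt-Nd4l and mt-Nd3 of complex I were at 1.47 and 0.405.

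**Figure D4:**
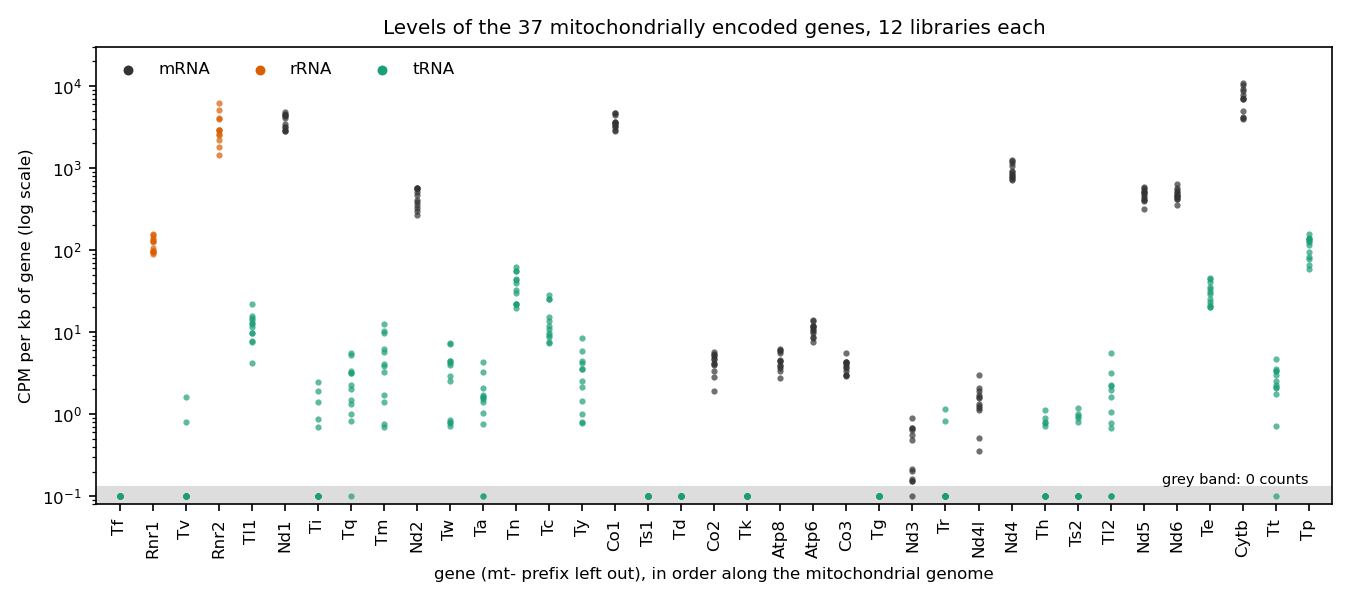
CPM per kb of gene on a log axis for all 37 genes in their order along the mitochondrial genome; each point is 1 of the 12 libraries, coloured by class, and points in the grey band have 0 counts. The 6 mRNA genes from mt-Co2 to mt-Nd4l lie between 0.405 and 10.9 CPM per kb on average, below the other 7 mRNA genes at 442 to 7114.

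Of the 6 low mRNA rows, 5 belong to genes whose sequence also stands in nuclear gene models. Stretches of 50 bases were looked up in the annotated nuclear transcripts of GENCODE M21. For mt-Co2 100% of its bases lay in a stretch found there letter for letter, for mt-Co3 99.9%, for mt-Atp6 99.6%, for mt-Nd4l 99.0% and for mt-Nd3 98.3%. These 5 genes averaged 0.405 to 10.9 CPM per kb. The share was 74.9% for mt-Co1, 63.6% for mt-Nd4, 24.3% for mt-Nd5, 17.2% for mt-Nd2 and 4.11% for mt-Rnr2, and 0% for mt-Rnr1, mt-Nd1, mt-Nd6, mt-Cytb, mt-Atp8 and all 22 tRNA genes. mt-Atp8 was low without any such stretch, and only annotated transcripts were searched, not the DNA between them. Per the file headers, a read with more than 1 mapping site was left out of the counts. How much of each gene's RNA that removed was not tested. The rows of mt-Co2, mt-Co3, mt-Atp6, mt-Nd4l and mt-Nd3 hold only fragments that could be placed at 1 site. The same holds for mt-Co1 and mt-Nd4 over the shared part of their length. Values per kb divide by the full length of the gene, so the ranking of levels and the gap between mt-Co1 and mt-Co2 carry this limit.

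Most of the matches stand in 1 block of 7 nuclear gene models on chromosome 1 (chr1:24611535-24616197, GRCm38), in which copies of mt-Co1, mt-Co2, mt-Atp6, mt-Co3, mt-Nd3, mt-Nd4l and mt-Nd4 lie side by side as in the mitochondrial genome. Of the 7 copies, 5 matched their mitochondrial gene with 0 mismatches over the aligned bases. Gm28438 differs from mt-Nd3 at 1 of 345 aligned bases, T3C counted from the first base of mt-Nd3. The first 50 bases of both are shown because this base, in capitals, is the only one at which the aligned sequences differ; the first is MT:9459-9508 on the plus strand and the second chr1:24613070-24613119 on the minus strand.
mt-Nd3: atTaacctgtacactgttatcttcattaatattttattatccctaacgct
Gm28438: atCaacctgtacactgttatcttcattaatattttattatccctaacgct
The row of mt-Nd3 held 29 counts over all 12 libraries and that of Gm28438 held 3193, between 144 and 367 in each library.

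The rows of the nuclear copies were read beside those of the mitochondrial genes. Of 11 copies tested in each sex, 0 passed the test. In females 5 were higher in KO without overlap, 0 lower and 6 overlapped, and in males all 11 overlapped; of all genes, 12.1% were higher in female KO without overlap. The 6 that overlapped in females were Gm10222, Gm10925, Gm13339, Gm28437, Gm28661 and Gm29216, with log2 fold changes from 0.01 to 0.61. Gm28438 was at 10.4 ± 2.49 CPM in female Hetz and 18.5 ± 1.75 in female KO (log2 fold change 0.82, SE 0.207, adjusted p = 0.0634, KO higher without overlap), and at 16.05 ± 3.49 and 18.1 ± 5.44 in males. Gm20594 on chromosome 6 is a gene model that shares only 65 bases with mt-Rnr2, covered by 16 overlapping stretches of 50 bases. Gm20594 was at 0.775 ± 0.368 CPM in female Hetz and 2.18 ± 0.112 in female KO (log2 fold change 1.47, SE 0.402, adjusted p = 0.0836, KO higher without overlap), and at 0.874 ± 0.145 and 0.812 ± 0.378 in males. Gm13340 and Gm13341 on chromosome 2, copies of mt-Co1 and mt-Co2, were likewise higher in female KO without overlap, at 16.2 ± 3.37 against 24.8 ± 3.33 CPM (adjusted p = 0.125) and 4.03 ± 0.315 against 6.50 ± 0.298 CPM (adjusted p = 0.146), as was Gm28439, a copy of mt-Nd4, at 1.52 ± 0.0375 against 2.66 ± 0.397 CPM (adjusted p = 0.200). Whether these rows count nuclear or mitochondrial RNA cannot be told apart. mt-Co2 itself, named here after its values were seen, was at 2.29, 2.70 and 1.32 CPM in female Hetz and 3.25, 3.92 and 3.48 CPM in female KO, without overlap (adjusted p = 0.244).

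The 22 tRNA genes together held 3070 counts of 5137052 mitochondrial counts over the 12 libraries. Of these genes, 8 had a count in every library, and mt-Tf, mt-Ts1, mt-Td, mt-Tk and mt-Tg had 0 counts in all 12, where a count of 0 allows up to 3 counts, or 0.144 to 0.237 CPM depending on the library. mt-Tp, the proline tRNA next to the control region, held 48.0% of all tRNA counts. The 8 tRNA genes encoded on the minus strand, among them mt-Tp, mt-Tn, mt-Te and mt-Tc, held 88.2%. The count does not use strand, so these fragments can come from tRNA precursors or from the RNA of the opposite strand that runs through the tRNA genes.

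Of the tRNA genes, 5 were tested, and none passed. mt-Tp (MT:15356-15422) was at 6.40, 5.26 and 9.26 CPM in female Hetz and 5.46, 3.98 and 4.43 CPM in female KO, with overlap (log2 fold change -0.59, SE 0.265, adjusted p = 0.270). In males it was at 8.77, 8.49 and 7.77 CPM in Hetz and 10.4, 9.29 and 9.36 CPM in KO, higher in KO without overlap. The difference of the changes was -0.80 (SE 0.316, adjusted p = 0.320). mt-Tl1 (MT:2676-2750), the leucine tRNA behind mt-Rnr2, was at 0.320, 0.580 and 0.740 CPM in female Hetz and 0.861, 1.19 and 0.954 CPM in female KO, higher without overlap, and at 1.11, 0.562 and 0.738 CPM in male Hetz and 1.06, 0.981 and 1.66 CPM in male KO. The male log2 fold change was 0.65 (SE 0.466, adjusted p = 0.641). The mt-Tl1 row rests on 6 to 25 counts per library.

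Levels were also set side by side between the sexes, which are in separate tables, so that sex and table cannot be told apart and no test was made. For 4 of the 19 members with enough counts all 6 female libraries lay below all 6 male libraries, and for 0 all lay above, where 9.72% of all genes were without overlap in either direction and 5.47% lower in females. mt-Nd1 was at 2727 to 3261 CPM in females and 3860 to 4648 in males, mt-Nd2 at 279.9 to 422.7 and 493 to 592.1, and mt-Nd4 at 978 to 1169 and 1244 to 1718, all subunits of complex I. mt-Tm, the methionine tRNA just before mt-Nd2, was at 0.0479 to 0.267 CPM in females and 0.281 to 0.863 in males, on few counts. The other 15 overlapped, among them mt-Nd5 and mt-Nd6 of the same complex, mt-Co1, mt-Cytb and both rRNA genes.

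The nuclear genes that make, process and use mitochondrial RNA were read as 6 lists. A single gene of these lists passed in either sex: Mrpl45, a protein of the large mitochondrial ribosomal subunit, fell in female KO from 32.6 ± 6.88 to 18.9 ± 1.09 CPM (log2 fold change -0.79, SE 0.177, adjusted p = 0.0388). At an unadjusted p under 0.05 there were 20 genes in each sex, or 12.1% of those tested in females and 12.2% in males, beside 17.9% and 12.4% of all genes. The median log2 fold change over these genes was -0.08 in females and -0.08 in males. Of the transcription list 0 of 15 genes were called in females and 0 of 14 in males. Its gene with the smallest p in males was Polrmt, the mitochondrial RNA polymerase, at 19.9 ± 1.91 CPM in Hetz and 13.99 ± 2.503 in KO (log2 fold change -0.50, SE 0.183, adjusted p = 0.281), and in females it was Mterf2, at 1.84 ± 0.350 and 1.08 ± 0.280 CPM (adjusted p = 0.298). Of the lists of DNA replication (12 genes) and of RNA processing and decay (19 genes) 0 were called in either sex. Their smallest p-values in females belonged to Ssbp1, which binds single-stranded mitochondrial DNA (log2 fold change -0.36, adjusted p = 0.273), and Fastkd3 (-0.51, adjusted p = 0.157). In males they belonged to Twnk, the mitochondrial DNA helicase (-0.38, adjusted p = 0.307), and Elac2, which cuts the 3′ ends of tRNAs (-0.48, adjusted p = 0.380).

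Of 18 genes for rRNA modification and ribosome assembly 0 were called. Mrm3, which methylates the 16S rRNA, was at 31.3 ± 6.73 CPM in female Hetz and 21.4 ± 2.05 in female KO (log2 fold change -0.55, SE 0.181, adjusted p = 0.147). Noa1, a GTPase needed for mitochondrial translation, was at 18.4 ± 3.74 CPM in male Hetz and 11.05 ± 0.501 in male KO (log2 fold change -0.73, adjusted p = 0.121), and in females at 15.7 ± 4.43 and 21.5 ± 2.86. The difference of its changes was 1.18 (SE 0.289, adjusted p = 0.129). In the other lists the genes with the smallest p for the difference had both signs, and none passed edgeR's test. It was -1.50 for Mterf2 (adjusted p = 0.289) and -0.59 for Hsd17b10 (adjusted p = 0.228). For Tk2 it was 0.68 (adjusted p = 0.509), for Mrps5 0.88 (adjusted p = 0.157) and for Aars2 0.90 (adjusted p = 0.313). Of 79 ribosomal proteins Mrpl45 was the only one called, and of 22 genes for tRNA charging 0 were called, with Iars2 at 19.4 ± 3.98 and 27.8 ± 1.62 CPM in females (adjusted p = 0.163). In males the smallest p-values of these lists belonged to Mrpl33 (log2 fold change 0.50, adjusted p = 0.139) and Qrsl1 (-0.69, adjusted p = 0.234).

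Other measures moved with genotype beside the mitochondrial rows. Malat1, an abundant nuclear RNA, was at 1112 ± 80.6 CPM in female Hetz and 743.7 ± 54.0 in female KO (adjusted p = 0.0525) and at 1168 ± 248.6 and 905.5 ± 18.1 in males (adjusted p = 0.358), lower in KO without overlap in both sexes. In females 3 of 14 tested leukocyte markers (Cd14, Cd74 and Lyz2) fell, and their summed level was 104 to 137 CPM in Hetz and 41.6 to 62.7 CPM in KO; in males 0 of 8 were called and the sums overlapped (43.6 to 113 and 73.3 to 90.9). Of 12 satellite cell markers Chrdl2, Cd34 and Spry1 fell in female KO, from means of 289, 136 and 214 CPM to 77.6, 70.0 and 102 CPM. The sums over all 12 were 13009 to 14478 CPM in female Hetz and 8733 to 11313 in female KO. Markers that were not called made up most of these sums. Chrdl2 fell in male KO, where the sums over all 12 overlapped (17797 to 20755 and 19211 to 20447). Pax7, the transcription factor that defines satellite cells, was at 12.9 ± 2.38 and 12.5 ± 0.434 CPM in females and 22.2 ± 6.49 and 16.2 ± 5.99 in males. Of 11 tested myofibre markers 0 were called, and the sums ran from 130 to 375 CPM in female Hetz, 142 to 737 in female KO, 54.5 to 70.5 in male Hetz and 52.3 to 153 in male KO. Sums for endothelium, fibro-adipogenic progenitors, pericytes and red blood cells overlapped between genotypes in both sexes. Of 8 Schwann cell markers tested, Ptprz1 alone was called in female KO, lower at 21.6 ± 4.08 CPM against 39.1 ± 8.78. Ptprz1 made up a large part of the Schwann cell sums of 66.5 to 95.3 CPM in Hetz and 49.6 to 55.4 CPM in KO. The median log2 fold change of the 8 was 0.10, so the list as a whole did not fall. The sum of 6 tenocyte markers was lower in male KO (122.6 to 142.7 and 104 to 122.2) with 0 called. Beside these counts, 0.983% of all genes were called lower in female KO and 0.157% in male KO. Without overlap, 10.1% of all genes were lower in female KO and 7.8% in male KO. No marker was at 0 in all libraries. The part of these cells and RNAs in the mitochondrial values was not tested.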

How the data were processed

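RNA was measured by Smart-Seq2 in 12 libraries, 3 animals for each sex and Keap1 genotype. The authors deposited whole fragment counts for each Ensembl gene; per the file headers they used featureCounts 2.0.0 with the exon annotation of release 99 (Ensembl GRCm38). The deposited values are not estimated counts per the file headers, and none needed rounding. Per the file headers, strand was not used, and a read with more than 1 mapping site or gene was left out. Per the submitters' processing notes, STAR, Subread, DESeq2 and mm10 were also used; their versions are not given in the sources used here. Symbols were found for 55144 of 55385 gene IDs, and all 37 members had the same coordinates in GENCODE M21. No other sample's column was found.

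Genes were filtered with filterByExpr (minimum count 10), scaled by TMM and tested with edgeR 4.0.16 (limma 3.58.1, R 4.3.3; robust quasi-likelihood F test) within each sex, and over 12 libraries with 4 group means for the difference of the changes. P-values were adjusted by Benjamini-Hochberg over all genes tested, with a threshold of 0.05. Intervals are at 95%. Shares are percent of all counts of a library. Tables were made with Python 3.11.15. An exact permutation test of 3 members (SciPy 1.17.1) is not used, because they were picked with their values known. The fit was tested on simulated data. Alternatives were DESeq2 1.42.0, limma voom, other scalings, no filter, all 12 libraries in 1 fit, other denominators and leaving out each library.

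Full statistics are given for both rRNA genes, for called members and for the member of each class with the smallest p in each comparison. From each pathway list, called genes or the gene with the smallest p are named. Nuclear copies with 10 or more counts in at least 3 libraries could be named. The members and lists were chosen with earlier results of these data known. Sequences were read from the GENCODE M21 transcripts. Smart-Seq2 has no molecular identifiers, so floors of 3 counts cover counting error only.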

Additional observations from a re-analysis of the deposited data

Results flagged for a closer look

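The change of mt-Rnr2 had opposite signs in the 2 sexes, with a difference of 1.62 on the log2 scale between the female and male change; its test gave an adjusted p of 0.0854 by edgeR. The share of all counts in the rRNA genes was higher in every female KO library than in every female Hetz library and lower in every male KO library than in every male Hetz library, and the female minus male difference of the changes was 0.609 percentage points. The ratio of rRNA to mRNA counts differed in the same way, by 0.397, and the ratio of mt-Rnr2 to mt-Rnr1 counts by 43.6. These 3 differences were not tested. All 3 are computed from the mt-Rnr2 counts, so they are not separate from the change of mt-Rnr2.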

How the results depend on the processing

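No paired analysis was possible because no animal number occurs in more than 1 group. Genes called in females numbered 319, 707 with DESeq2, 1000 without the low-count filter and 144 to 1479 when 1 library was left out, the highest without Hetz165. In males 115 were called, 264 with DESeq2, 375 without the filter and 41 to 294 with 1 library left out. For the difference of the changes 1 was called, 243 with DESeq2, 358 without the filter and 0 to 206 with 1 library left out. Members called in females numbered 1, and 2 with DESeq2, with all 12 libraries in 1 fit and without the filter (mt-Rnr2 and mt-Cytb), and 0 to 2 with 1 library left out. In males 0 were called, and 1 without the filter. For the difference 0 were called, 2 with DESeq2, 2 without the filter and 0 to 2 with 1 library left out, with 2 without Hetz165. Of 264 values of named members under alternatives, 238 kept direction and call. Those that changed sign belonged to mt-Nd6 in females (-0.0015 with DESeq2, -0.0026 with voom and -0.097 to 0.13 with 1 library left out), mt-Rnr1 in males (-0.11 to 0.24) and mt-Tl1 for the difference (-0.066 to 0.49), none of which was called. Another denominator was only the mRNA genes that have no nuclear copy: mt-Cytb, mt-Nd1, mt-Nd6 and mt-Atp8. It is smaller, and mt-Cytb, which was lower in female KO, weighs more in it. The KO minus Hetz difference of the rRNA to mRNA ratio was then 0.640 in females and -0.166 in males. With all mRNA genes the mean ratio was 0.234 in female Hetz, 0.536 in female KO, 0.230 in male Hetz and 0.135 in male KO. The cause of the shifts between settings was not tested. With 3 animals a group, p-values rest on few animals, and tRNA rows under about 25 counts a library limit what could be detected.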
